A study of Mus musculus with 3 samples.

Results

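Setd1a peaks in quiescent neural stem cells were not confined to genes, and the most isolated of them are described here. A far intergenic peak was defined as a Setd1a CUT&RUN peak on the 19 autosomes that lay more than 3000 bp from the transcription start site (TSS) of every annotated transcript, overlapped no annotated gene of any type, and had its nearest protein-coding TSS more than 50 kb away. Annotated here means in GENCODE M21, and distances were measured from the nearer edge of the peak. By this rule 478 peaks were far intergenic, of 6911 autosomal peaks and 6969 peaks in all, which is 6.92% of the autosomal peaks (95% Wilson interval 6.34% to 7.54%). The rule used position only and no width or sequence, but GC content, CpG content and grouping varied with the distance from genes on which it rests.

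The peaks came from adult neural stem cells, labelled neural progenitor cells, that were grown in culture from the dentate gyrus of mice aged 7 to 8 weeks. The mice carried Hopx-CreERT2, which puts a tamoxifen-inducible Cre under the control of a gene active in adult hippocampal stem cells, together with floxed Setd1a on both alleles and an H2B-GFP reporter. The libraries are labelled WT, and the floxed allele was shared by all of them. Cells were expanded with FGF2 and EGF, then made quiescent by replacing EGF with BMP4 beside FGF2, both at 20 ng/ml, and were taken at day 5. There were 2 Setd1a libraries from independent cultures and 1 IgG library, and the values analysed are 1 list of peaks present in both Setd1a libraries. The list gives the first and last base of each peak with no height or score, so depth is unknown and no value can be given per library. Differences between libraries, and the signal of the IgG library at these sites, were not analysed here. Promoter peaks lay at 7 of 12 neural stem cell marker genes (Sox2, Nes, Vim, Hes1, Id3, Gfap and Notch1, but not Fabp7, Slc1a3, Hes5, Hopx or Sox9), at 1 of 8 neuronal markers, at 2 of 5 oligodendrocyte lineage markers and at none of 5 microglial or 5 endothelial and mural markers. Over all autosomal coding genes the share was 23.3%, so few or no peaks in lists of 5 to 8 genes say little. A peak is not a measure of expression.

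Setd1a is a histone methyltransferase that works in a multisubunit complex and adds methyl groups to lysine 4 of histone H3. Complexes of this family are known above all at active promoters, where a zinc finger subunit binds unmethylated CpG dinucleotides and the trimethylated form of the mark accumulates at CpG islands. Sequence far from genes is mostly poor in GC and in CpG and rich in interspersed repeats, and it also holds enhancers, which are short regions bound by transcription factors that act on promoters over a distance. CUT&RUN cuts DNA beside an antibody-bound protein in permeabilized cells and cannot by itself tell direct binding at a site from contact through a looped promoter.

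The 4 widest far intergenic peaks are shown by the 300 bp around their midpoints, because they are the widest peaks among the 478. They are the peak of 2425 bp between Irf2bp2 and Tomm20, those of 1367 and 1338 bp between Sox2 and Atp11b, and the peak of 1293 bp between Lrrc74a and Irf2bpl. The bases are those of GRCm38.p6, plus strand, at the coordinates of mm10, and capitals mark the SOX letters CTTTGTT in the third and the RFX letters GTTGCCAT in the fourth window. The first holds the CA repeat ACACACAC and the second the NFY letters CCAAT, which are not marked. Of the 18 motifs searched, each of the 4 windows holds 1.
chr8:126666832-126667131: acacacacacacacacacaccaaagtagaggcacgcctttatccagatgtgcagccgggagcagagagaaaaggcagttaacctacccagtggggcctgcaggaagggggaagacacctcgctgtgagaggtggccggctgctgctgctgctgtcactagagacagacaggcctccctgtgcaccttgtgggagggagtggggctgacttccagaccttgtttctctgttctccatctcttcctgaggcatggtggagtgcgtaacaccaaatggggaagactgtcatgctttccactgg
chr3:35340885-35341184: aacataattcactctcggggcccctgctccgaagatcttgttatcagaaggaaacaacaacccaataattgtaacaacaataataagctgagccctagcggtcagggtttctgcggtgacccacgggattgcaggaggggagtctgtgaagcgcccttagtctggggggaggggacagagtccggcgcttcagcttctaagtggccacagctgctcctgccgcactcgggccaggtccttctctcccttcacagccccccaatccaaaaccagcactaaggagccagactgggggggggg
chr3:35141288-35141587: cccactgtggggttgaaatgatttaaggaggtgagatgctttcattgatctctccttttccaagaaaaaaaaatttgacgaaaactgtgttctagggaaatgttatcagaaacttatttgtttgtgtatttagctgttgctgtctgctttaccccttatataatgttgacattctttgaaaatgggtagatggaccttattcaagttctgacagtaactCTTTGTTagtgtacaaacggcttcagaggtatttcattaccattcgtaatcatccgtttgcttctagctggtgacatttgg
chr12:86790043-86790342: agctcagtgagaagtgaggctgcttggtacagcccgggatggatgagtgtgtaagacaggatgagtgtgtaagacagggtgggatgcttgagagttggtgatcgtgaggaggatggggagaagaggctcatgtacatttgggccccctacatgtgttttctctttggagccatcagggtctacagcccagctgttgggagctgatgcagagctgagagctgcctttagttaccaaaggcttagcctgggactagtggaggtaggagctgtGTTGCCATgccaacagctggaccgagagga

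A second set of 3 windows is shown because these peaks had the highest ratio of observed to expected CpG among far intergenic peaks with at least 50% GC. Capitals mark each CpG, and the windows hold 46, 24 and 27 of them in 300 bp. The first lies 86571 bp upstream of Arid1b, a subunit of a chromatin remodelling complex, and the third lies 88471 bp downstream of the TSS of Axin2, a feedback inhibitor of Wnt signalling. The second lies between Gm8797 and 1700008P02Rik, and its sequence recurs once elsewhere in the assembly at 94.4% identity. It did not align to a fragment of 420 bp of the ribosomal RNA gene Rn28s1, and whether it comes from the rest of that gene was not tested.
chr17:4908015-4908314: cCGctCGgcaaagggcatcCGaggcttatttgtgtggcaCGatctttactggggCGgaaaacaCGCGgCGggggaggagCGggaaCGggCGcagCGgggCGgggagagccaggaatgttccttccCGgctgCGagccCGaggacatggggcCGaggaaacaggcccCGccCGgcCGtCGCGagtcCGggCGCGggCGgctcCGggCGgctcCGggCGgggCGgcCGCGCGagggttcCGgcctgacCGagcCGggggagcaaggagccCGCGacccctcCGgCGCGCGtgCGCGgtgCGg
chr3:5860414-5860713: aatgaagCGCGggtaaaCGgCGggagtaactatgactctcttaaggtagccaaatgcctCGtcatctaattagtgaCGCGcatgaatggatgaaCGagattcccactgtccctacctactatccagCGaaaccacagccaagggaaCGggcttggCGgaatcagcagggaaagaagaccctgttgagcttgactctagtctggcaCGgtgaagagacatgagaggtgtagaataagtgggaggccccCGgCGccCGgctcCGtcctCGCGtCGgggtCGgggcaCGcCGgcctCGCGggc
chr11:109011728-109012027: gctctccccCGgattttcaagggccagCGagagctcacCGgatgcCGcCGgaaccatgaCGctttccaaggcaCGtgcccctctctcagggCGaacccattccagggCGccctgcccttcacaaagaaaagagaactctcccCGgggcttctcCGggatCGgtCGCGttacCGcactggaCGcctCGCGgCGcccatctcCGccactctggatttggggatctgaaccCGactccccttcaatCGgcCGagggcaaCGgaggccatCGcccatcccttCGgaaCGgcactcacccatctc

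Set side by side, the 2 sets differ in base composition over the same length. The windows of the widest peaks hold 5, 10, 4 and 3 CpG, against 24 or more in each of the others. As the second set was chosen for its CpG ratio, its higher counts follow from the choice. Peaks poor in CpG were the rule and CpG-rich peaks the exception among the far intergenic peaks, as described below for all 478.

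Far intergenic peaks were sparse and became sparser with distance from coding genes. Sequence that met the rule amounted to 774.5 Mb, or 32.3% of the known autosomal sequence, and it carried 0.617 peaks per Mb (exact Poisson 95% interval 0.563 to 0.675), or 1 peak in 1620 kb. Intergenic sequence within 50 kb of a coding TSS carried 1.39 peaks per Mb (1.27 to 1.52), gene bodies more than 20 kb from every TSS carried 0.940 (0.845 to 1.04), and sequence within 3000 bp of a TSS carried 12.7 (12.3 to 13.0). These 4 intervals do not overlap. Intervals of this kind cover counting error over peaks and not the difference between cultures.

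Beyond the limit of 50 kb the decline went on. Between 50 and 100 kb from the nearest coding TSS there were 170 peaks, or 1.15 per Mb (0.981 to 1.33). Between 100 and 250 kb there were 172, or 0.752 per Mb (0.644 to 0.874), and between 250 and 500 kb there were 90, or 0.482 per Mb (0.388 to 0.593). More than 500 kb away there were 46, or 0.218 per Mb (0.160 to 0.291), and no pair of the 4 intervals overlaps. The outermost sequence made up 27.2% of far intergenic sequence and held 9.62% of the peaks, while the innermost made up 19.1% and held 35.6%. Of these peaks, 253 lay upstream and 225 downstream of their nearest coding TSS, so that 52.9% were upstream (48.4% to 57.4%). The median distance was 137239 bp, with quartiles of 80480 and 275829 bp.

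**Figure D1:**
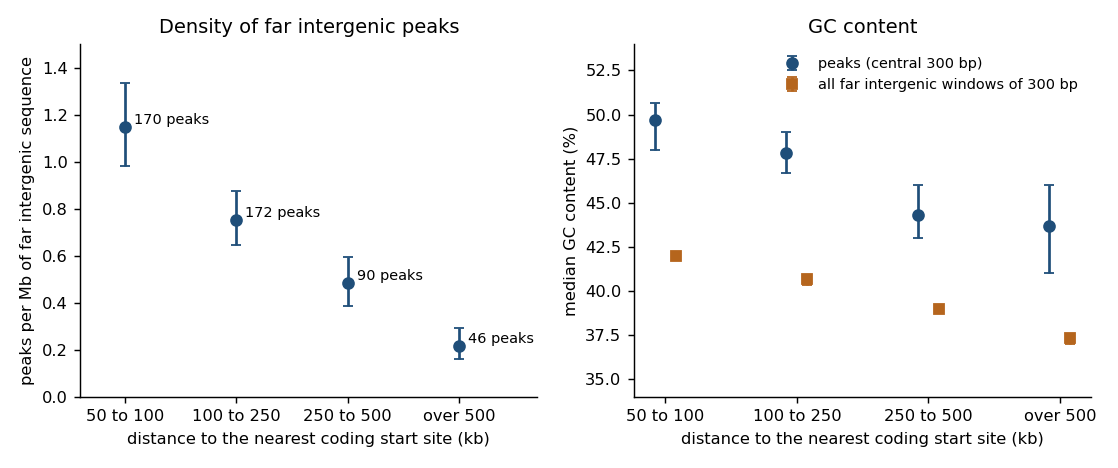
Left, far intergenic peaks per Mb of far intergenic sequence in 4 ranges of distance to the nearest coding TSS, with exact Poisson 95% intervals and the number of peaks. Right, median GC content of the central 300 bp of those peaks and of regularly spaced 300 bp windows over far intergenic sequence, with 95% intervals of the median. Density falls from 1.15 to 0.218 per Mb, and the peaks lie above the windows in GC in every range.

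The 5 peaks farthest from a coding TSS lay in gene deserts. The most distant, chr1:102432937-102433185, was 2335176 bp from Cntnap5b and 2335344 bp from Cdh20, a cadherin, and so sat almost at the centre of the gene desert between them. Next came chr14:82577588-82578203, at 1865360 bp from the protocadherin gene Pcdh17, and chr1:113461003-113461288, at 1596085 bp from Dsel. The remaining pair were chr14:81548554-81548807, at 1548252 bp from Olfm4, and chr8:7092138-7092841, at 1546522 bp from Efnb2, which encodes an ephrin ligand. Of the 5 nearest genes, Dsel alone had a Setd1a peak within 3000 bp of a coding TSS, beside 25.9% of all nearest coding genes. Repeats made up 63.9% and 69.3% of the first and second of these peaks. At the other end, the 3 peaks just inside the limit lay 50468 bp from 9530068E07Rik, 50526 bp from Psme4 and 50549 bp from Tob1. The 3 just outside lay 49792 bp from Dct, 49855 bp from Cyp3a41a and 49964 bp from Mpdz.

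Most far intergenic peaks were narrow. Their widths had a median of 374 bp (95% interval of the median 357 to 385 bp), with quartiles of 289 and 521 bp and extremes of 233 and 2425 bp. The median was 411 bp (386 to 437 bp) for intergenic peaks within 50 kb, 382 bp (364 to 414 bp) for gene body peaks beyond 20 kb and 603 bp (590 to 616 bp) for peaks over a coding TSS. Far intergenic peaks were thus narrower than the intergenic peaks nearer to genes and than the coding TSS peaks by intervals that do not overlap, and overlapped the gene body peaks. Only 12 of them (2.51%, 1.44% to 4.34%) reached 1000 bp, against 410 of 3032 coding TSS peaks (13.5%, 12.4% to 14.8%). Among the far intergenic peaks, 129 were under 300 bp wide.

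The widest peak, chr8:126665770-126668194, stood well apart from the rest at 2425 bp. It lay 71784 bp upstream of Irf2bp2, which encodes a transcriptional corepressor and had a promoter peak of its own, and another of the 10 widest, chr8:126735413-126736550 (1138 bp), lay 141427 bp upstream of the same gene. The peak of 1293 bp between Lrrc74a and Irf2bpl lay nearest to Lrrc74a, 55164 bp away and without a promoter peak. Irf2bpl, a gene related to Irf2bp2, was farther, at 93959 bp, and had a promoter peak. The others of the 10 widest were chr17:9905360-9906535 (1176 bp), between Pabpc6 and Qk, an RNA-binding protein of glia, and chr10:126451917-126453080 (1164 bp), between Lrig3 and Atp23. They continued with chr4:96718567-96719730 (1164 bp), between Cyp2j5 and Gm12695, chr8:35949542-35950682 (1141 bp), between Cldn23 and Prag1, and chr1:67397866-67398947 (1082 bp), between Cps1 and Erbb4, a neuregulin receptor. None of the 10 met the CpG island criteria, and their GC content ran from 41.1% to 56.8%.

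Far intergenic peaks were poor in CpG. Their GC content had a median of 47.1% (46.5% to 47.9%) and their ratio of observed to expected CpG a median of 0.195 (0.176 to 0.216). Peaks over a coding TSS had medians of 64.2% (63.9% to 64.5%) and 0.838 (0.831 to 0.843). Intergenic peaks within 50 kb had 50.2% GC (49.6% to 51.0%), above the far intergenic peaks with no overlap of intervals, and a CpG ratio of 0.211 (0.197 to 0.228), with overlap. Gene body peaks beyond 20 kb had 48.6% GC (47.9% to 49.4%) and a CpG ratio of 0.203 (0.183 to 0.215), of which the GC interval lies just above that of the far intergenic peaks without overlap and the CpG interval overlaps it. No CpG at all was present in 35 far intergenic peaks (7.32%).

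The low GC content was still high for its surroundings. Windows of 300 bp placed every 10 kb over far intergenic sequence, 77116 in all, had a median GC of 39.3% and a median CpG ratio of 0.128, while the central 300 bp of the peaks had 47.2% and 0.185. Of the peaks, 35.6% had at least 50% GC in this window, against 7.26% of the sequence. GC content fell with distance from coding genes in the peaks and in the sequence around them alike. In the central 300 bp it was 49.7% (48.0% to 50.7%) between 50 and 100 kb and 43.7% (41.0% to 46.0%) beyond 500 kb, and in the windows 42.0% and 37.3%. The difference between peaks and windows was 7.67, 7.17, 5.33 and 6.33 percentage points in the 4 ranges, from the nearest to the farthest.

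**Figure D2:**
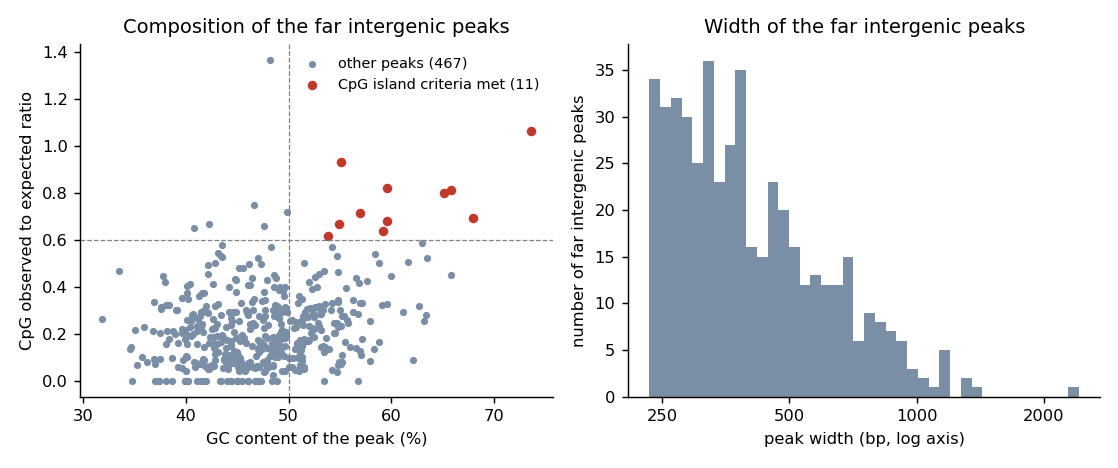
Left, GC content and ratio of observed to expected CpG of each of the 478 far intergenic peaks, with the 11 that meet the CpG island criteria in red and dashed lines at 50% GC and a ratio of 0.6. Right, histogram of their widths on a log axis, with a median of 374 bp and a single peak at 2425 bp far to the right.

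A CpG island, here a peak of at least 200 bp with at least 50% GC and a CpG ratio of at least 0.6, was found at 11 far intergenic peaks (2.30%, 1.29% to 4.07%). The share was 6.86% (4.93% to 9.48%) of intergenic peaks within 50 kb, 1.96% (0.953% to 3.99%) of gene body peaks beyond 20 kb and 90.5% (89.4% to 91.5%) of coding TSS peaks. The 5 with the highest CpG ratio included, beside those near Arid1b, Gm8797 and Axin2 shown above, chr7:73618000-73618297 (ratio 0.811, 76254 bp upstream of the chromatin remodeller gene Chd2) and chr17:84096407-84096850 (0.798, 91097 bp downstream of Zfp36l2, an mRNA decay factor). The nearest genes Axin2, Chd2 and Zfp36l2 had promoter peaks, and Arid1b and Gm8797 had none. Over all nearest coding genes of far intergenic peaks the share was 25.9%, beside which 5 genes say little. The other 6 are named after their values were seen. They were chr1:21166400-21166634 near Tmem14a, chr2:30712101-30712490 near 1700001O22Rik, chr7:58398985-58399298 near Atp10a, chr9:41950790-41951188 near Sorl1, chr15:85634048-85635056 near the ligand gene Wnt7b and chr17:6861665-6861973 near Ezr. With peaks left out whose sequence recurs elsewhere, as does that near Gm8797, 10 of the 11 CpG islands remained.

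Several of the CpG island peaks lay at starts of transcripts that a second annotation knows. RefSeq places a TSS within 3000 bp of 37 of the 478 peaks, and 7 of these peaks overlap one. By RefSeq, 67 of the 478 lay in a gene body, some of them also among the 37. Of the 67, the CpG island peak near Axin2 lies in the noncoding gene Gm36876. Of the 11 CpG island peaks 4 were among the 37, against 33 of the other 467 (7.07%). The peak near Arid1b overlaps the RefSeq TSS of the noncoding gene Gm34507, that near Wnt7b overlaps the TSS of D130051D11Rik, and that near Tmem14a overlaps a RefSeq TSS of Tmem14a itself. The peak near Atp10a lies 17 bp from the start of n-TEttc7, a tRNA gene. The 37 peaks had a median CpG ratio of 0.242 (0.204 to 0.32) against 0.187 (0.168 to 0.212) for the other 441, and a median width of 448 bp (332 to 553 bp) against 371 bp (356 to 384 bp), with overlapping intervals in each case. In GENCODE the nearest gene of any type was most often a lincRNA (155 peaks), a processed pseudogene (122) or a protein-coding gene (86), and the median distance to it was 23697 bp.

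Repeats were rarer in far intergenic peaks than in far intergenic sequence. Repeat-masked bases had a median share of 8.28% per peak (6.98% to 9.29%), near the 8.94% (7.79% to 9.82%) of intergenic peaks within 50 kb and above the 4.18% (3.96% to 4.40%) of coding TSS peaks. In central windows of 300 bp the median was 7.67% against 26.7% in the windows over far intergenic sequence. Over 50% of bases were masked in 6.49% of the peaks' windows and in 31.8% of the sequence. Reads had been mapped uniquely by the authors, and repeats shared by many sites give fewer unique reads. The part of mappability in this difference was not tested.

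Peaks whose sequence recurs elsewhere were few, and are listed after their values were seen. With at least 90% identity over at least 90% of the peak, 8 peaks (1.67%, 0.850% to 3.27%) aligned to another place of the assembly. The peak chr1:96175372-96175642, wholly repeat-masked, aligned to 24207 other places, and chr10:36454095-36454386 (99.0% masked, 52428 bp upstream of Hs3st5) to 510. The other 6 had 1 to 18. One of these, chr6:3201243-3201543, matched the RefSeq ribosomal RNA related sequence Rn18s-rs5 over its whole length at 98.0% identity and had the highest CpG ratio of all far intergenic peaks, 1.36. No far intergenic peak aligned to the mitochondrial genome. Peaks made mostly of repeats were counted by width, and 18 of the 161 narrowest peaks (233 to 319 bp), 7 of the 158 of middle width and 5 of the 159 widest (456 bp and more) were over 50% masked. The median masked shares were 8.36% (6.22% to 10.3%), 7.74% (6.44% to 10.6%) and 8.32% (5.88% to 9.56%), with overlap.

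Transcription factor motifs set the far intergenic peaks apart from promoters and, for a few, from their surroundings. Each motif was searched on both strands in the central 300 bp, and shares are of windows with at least 1 match. A match is a run of letters and not a measured site. The AP-1 letters TGANTCA, bound by FOS and JUN proteins, were present in 66 peaks, or 13.8% (11% to 17.2%). They were in 9.10% (8.89% to 9.30%) of far intergenic windows and in 3.0% (2.45% to 3.67%) of coding TSS peaks, with no overlap of intervals. The share was 11.9% (9.26% to 15%) in intergenic peaks within 50 kb and 11.2% (8.34% to 14.9%) in gene body peaks beyond 20 kb, whose intervals overlap that of the far intergenic peaks. Among windows of 45% to 50% GC, a comparison added after the values were seen, AP-1 letters were in 16.6% (11.4% to 23.4%) of 145 peaks and in 8.81% (8.32% to 9.32%) of the sequence. Within this band the 2 sets still differed in repeats, with a median of 7.67% masked bases in the peaks and 29.3% in the sequence. The part of repeats in the motif shares was not tested.

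The full palindrome of nuclear factor I (NFI), a family with roles in glial and stem cell gene regulation, was present in 7 far intergenic peaks, or 1.46% (0.711% to 2.99%). It was in 0.0609% (0.0458% to 0.0810%) of far intergenic windows and in 0.231% (0.112% to 0.476%) of coding TSS peaks, with no overlap of intervals, and in 1.46% of intergenic peaks within 50 kb. Within 45% to 50% GC it was in 1.38% (0.379% to 4.89%) of peaks, which are 2 peaks, and in 0.104% (0.0609% to 0.178%) of the sequence. The 7 sites are shown because this motif had the largest ratio of peaks to surrounding sequence of those present in at least 5 peaks, a choice made after the values were seen. Each line gives the plus strand of GRCm38.p6 with the match in capitals and 8 bases on either side.
chr4:72384978-72385008: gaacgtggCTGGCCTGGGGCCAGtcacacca
chr7:145111667-145111697: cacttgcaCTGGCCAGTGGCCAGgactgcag
chr9:49980988-49981018: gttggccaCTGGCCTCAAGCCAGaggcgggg
chr12:86825009-86825039: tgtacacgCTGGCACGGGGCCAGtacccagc
chr13:107642504-107642534: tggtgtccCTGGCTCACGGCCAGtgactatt
chr16:4274152-4274182: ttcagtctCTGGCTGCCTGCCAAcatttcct
chr16:21339756-21339786: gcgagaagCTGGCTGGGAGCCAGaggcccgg

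From the first to the last, the nearest coding genes of these 7 peaks were Tle1, 1810010D01Rik, Ncam1, Irf2bpl, Smim15, Crebbp and Vps8. Tle1 encodes a Groucho corepressor, Ncam1 a neural cell adhesion molecule and Crebbp a histone acetyltransferase. By RefSeq, the peaks near Irf2bpl, Smim15 and Crebbp lay in noncoding genes. Promoter peaks lay at Tle1, Ncam1, Irf2bpl, Crebbp and Vps8. Over all nearest coding genes of far intergenic peaks the share was 25.9%. With 7 genes chosen after the values were seen, no comparison with that share was made. The sites lay 25 to 131 bp from the midpoint of their peaks. As only the central 300 bp were searched, this range is limited by the search and does not show that sites gather near midpoints.

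SP/KLF and SMAD letters, frequent at promoters, were rare in far intergenic peaks but above their surroundings. The SP/KLF letters GGGCGGG were in 4.60% (3.06% to 6.87%) of far intergenic peaks, 0.914% (0.849% to 0.984%) of far intergenic windows and 49.5% (47.7% to 51.3%) of coding TSS peaks. GGCGCC, a palindrome that SMAD proteins of the BMP pathway can bind, was in 2.72% (1.60% to 4.60%), 0.410% (0.367% to 0.457%) and 28.3% (26.7% to 29.9%). Low shares were not particular to far intergenic peaks. SP/KLF letters were in 7.28% (5.28% to 9.95%) of intergenic peaks within 50 kb and 3.92% (2.35% to 6.47%) of gene body peaks beyond 20 kb. For GGCGCC these shares were 5.82% (4.06% to 8.28%) and 2.52% (1.33% to 4.72%), and all 4 intervals overlap those of the far intergenic peaks. Within 45% to 50% GC the shares of both in peaks, 2.76% (1.08% to 6.88%) and 1.38% (0.379% to 4.89%), overlapped those of the sequence, 1.51% (1.31% to 1.74%) and 0.802% (0.660% to 0.975%). The E-box CACGTG was in 3.77% (2.40% to 5.87%) of peaks and 2.30% (2.19% to 2.41%) of windows, with intervals that overlap at 2.40%. The letters of CRE (TGACGTCA), ETS (CCGGAAGT) and YY1 (AAGATGGCG) were in 1 far intergenic peak each, and the letters of NRF1 (GCGCATGCG) in none, while coding TSS peaks held them at 3.6%, 7.62%, 4.52% and 4.32%. A count of 0 in 478, as for NRF1, has a Wilson upper limit of 0.797%.

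RFX letters, GTTGCCAT, were in 1.88% (0.994% to 3.54%) of peaks and 0.918% (0.853% to 0.988%) of windows, with intervals that lie close to each other without overlap. Within 45% to 50% GC the shares were 2.76% (1.08% to 6.88%) and 1.18% (1.0% to 1.38%), with overlap. Other motifs were as frequent as in the surrounding sequence, within overlapping intervals, or less frequent. SOX letters, CTTTGTT, were in 9.83% (7.48% to 12.8%) of peaks and 9.60% (9.39% to 9.81%) of windows, and in 4.14% (1.91% to 8.73%) and 7.11% (6.68% to 7.58%) within 45% to 50% GC. The NFY letters CCAAT were in 38.7% (34.4% to 43.1%) of peaks and in 44.4% (44.0% to 44.7%) of windows, and the CA repeat ACACACAC in 2.51% (1.44% to 4.34%) and 6.94% (6.76% to 7.12%), both lower in the peaks. Within 45% to 50% GC the NFY shares were 40.7% (33.0% to 48.8%) and 46.4% (45.5% to 47.3%) and the CA repeat shares 2.76% (1.08% to 6.88%) and 7.27% (6.82% to 7.74%), with overlap in each case. GAGAGAGA was in 3.56% (2.23% to 5.62%) and 4.93% (4.78% to 5.09%), and GGAAGGAA in 2.72% (1.60% to 4.60%) and 3.47% (3.35% to 3.6%), with overlap. Over whole peaks the CTCF consensus was found once (0.209%, 0.0369% to 1.18%), in chr9:30137937-30138636, 174808 bp upstream of the neuronal adhesion gene Ntm. It was in 12 of 481 intergenic peaks within 50 kb (2.49%, 1.43% to 4.31%) and in 1 of 357 gene body peaks beyond 20 kb. The telomere letters TTAGGGTTA were in none of the 478 windows and in 0.206% of the sequence, and the REST consensus was in none of the 478, of the 3032 coding TSS peaks or of the 77116 windows.

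**Figure D3:**
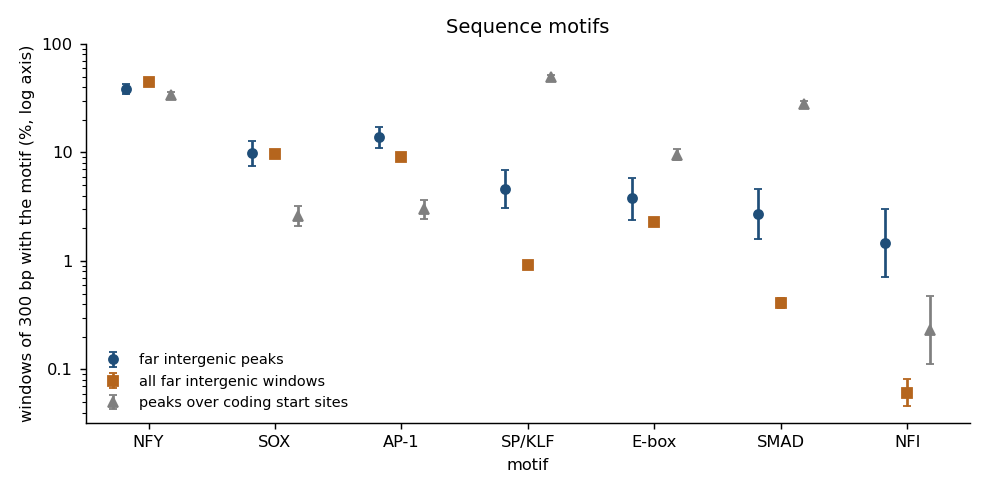
Share of 300 bp windows with each of 7 motifs on a log axis, for far intergenic peaks (circles), regularly spaced windows over far intergenic sequence (squares) and peaks over a coding TSS (triangles), with 95% Wilson intervals. AP-1 and NFI lie above both other sets in the far intergenic peaks, whereas SP/KLF, E-box and SMAD are highest in the coding TSS peaks.

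Few far intergenic peaks lay close to another peak, which the rule in part brings about. It keeps them away from TSSs, while 70.4% of autosomal peaks lay within 3000 bp of a TSS. The spacing of other classes of peak is not given here for comparison. The next peak of any kind lay at a median of 158548 bp, and 36 of the 478 had another far intergenic peak within 10 kb, in 15 pairs and 2 groups of 3. One group, of 440, 312 and 390 bp within 5033 bp, lay between Cstad and 1700001O22Rik on chromosome 2, and the peak of 390 bp is one of the CpG islands. The other, of 1293, 817 and 385 bp within 12449 bp, lay between Lrrc74a and Irf2bpl on chromosome 12, with a pair of 655 and 376 bp farther on. The second peak of that pair carries the NFI match shown above for Irf2bpl.

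Between neighbouring coding TSSs, 373 stretches held far intergenic peaks, of which 292 held 1 and 63 held 2. The 18 stretches with 3 or more held 60 peaks. Lrrc74a to Irf2bpl had the most, 5 in 150 kb, or 33.2 per Mb of the whole stretch. That stretch includes the sequence within 50 kb of either TSS, so this value is not comparable with the densities per Mb of far intergenic sequence above. With 4 each came Cstad to 1700001O22Rik (207 kb), Lrig3 to Atp23 (935 kb), Kif2a to Smim15 (1022 kb) and Sox2 to Atp11b (1104 kb).

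The 4 peaks beyond Sox2, a transcription factor that maintains neural stem cells, were each wider than the upper quartile of 521 bp. They measured 865, 1338, 645 and 1367 bp and lay 437687, 490365, 574968 and 689947 bp downstream of the Sox2 TSS. Their CpG ratios were 0.398, 0.207, 0.410 and 0.384. Sox2 had a promoter peak and Atp11b, a phospholipid transporter gene on the far side, had none. RefSeq has a noncoding gene, Gm38512, that starts 1448 bp from the fourth peak and covers it.

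**Figure D4:**
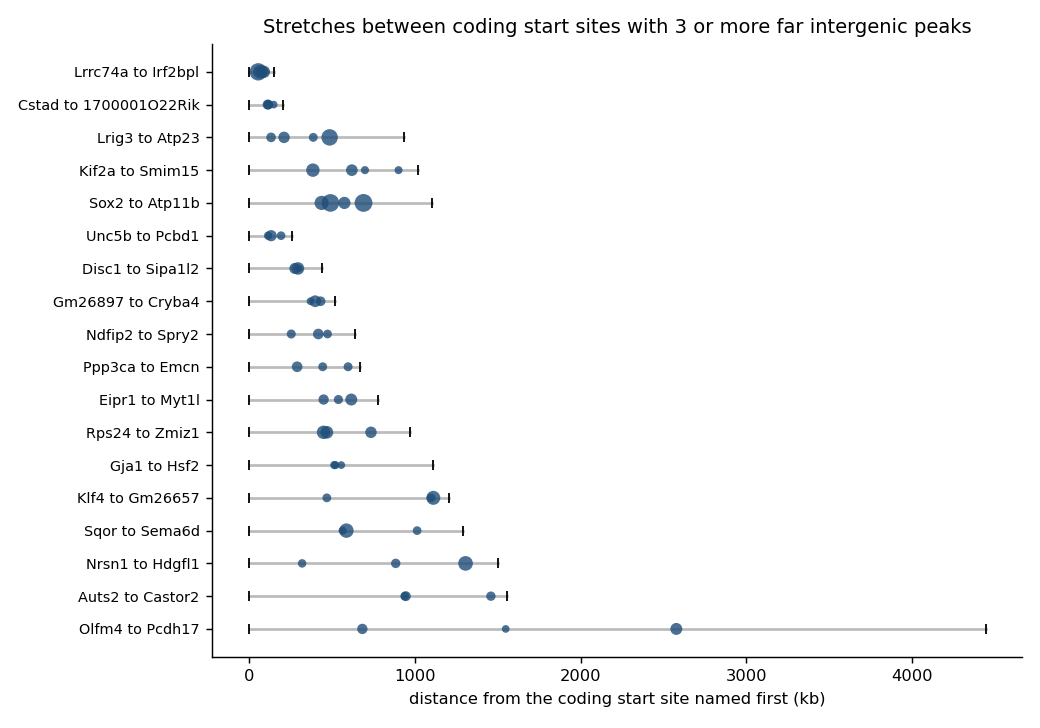
The 18 stretches between neighbouring coding TSSs that hold 3 or more far intergenic peaks. Each line runs from the TSS of the gene named first to that of the second, in kb, and each circle is a peak with an area in proportion to its width. The 5 peaks between Lrrc74a and Irf2bpl fall within 150 kb, and those between Olfm4 and Pcdh17 are spread over a stretch of 4443 kb.

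Each far intergenic peak was paired with its nearest protein-coding gene by TSS, which gave 401 genes. Nearness is a position and not evidence that a peak acts on the gene. A peak within 3000 bp of a coding TSS was present at 104 of the 401 (25.9%, 21.9% to 30.4%), beside 4829 of 20733 autosomal coding genes (23.3%). Of the 4175 coding genes that are nearest to some far intergenic sequence, 884 (21.2%) had one. The share was near this background, at 25.1% (20.8% to 30.1%) for genes nearest to 1 peak and 29.9% (20.2% to 41.7%) for genes nearest to 2 or more. The 1 gene nearest to 4 peaks was 1700001O22Rik, and the 8 nearest to 3 were Lrig3, Myt1l, Lrrc74a, Smim15, Cryba4, Castor2, St8sia2 and Sipa1l2. None of these had a promoter peak.

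Neural transcription factors were next to far intergenic peaks in part. Of 76 listed factors on the annotation 11 were nearest to at least 1 peak, and 20 were nearest or flanking. Far intergenic sequence is nearest to 55 of the 76, of which these 11 are 20%, while over all coding genes 401 of 4175 (9.60%) were nearest to a peak. Per 1000 windows of far intergenic sequence the list had 7.6 peaks and all genes 6.20. The shortest distance among the 11 was that of Nfib, an NFI family member, at 59.5 kb upstream. Nr2f1, a nuclear receptor of cortical patterning, had 2 peaks, at 261 and 738 kb upstream. Others were Sox2 (2 peaks), Mef2c at 550 kb, Pou3f2 at 436 kb, Tcf4 at 282 kb, Tcf7l2 at 131 kb, Hey1, a Notch target, at 88.6 kb, Tfap2a at 77.4 kb and Prox1, a factor of dentate granule neurons, at 74.9 kb. Promoter peaks lay at Sox2, Tcf4, Nfib and Hey1, or 4 of the 11, beside 20 of the 76 listed (26.3%). The peaks nearest Hey1 and Mef2c, and the nearer of those of Nr2f1, had no CpG.

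Cell adhesion and guidance genes, whose products hold neurons together and steer axons, were counted in the same way. Of 75 on the annotation, 14 were nearest to a peak, which is 21.2% of the 66 that border far intergenic sequence. This sequence is long, and per 1000 windows it held 2.12 peaks, against 6.20 over all genes. Distances ran from 79.1 kb for Cntnap2, a neurexin family gene, to 1865 kb for Pcdh17, with Ntm at 175 kb, Tenm4 at 244 kb, Sema6d at 276 kb, Lsamp at 384 kb and the ephrin receptor gene Epha4 with peaks at 327 and 717 kb. Promoter peaks lay at Cdh4, Sema6d, Efna5 and Tenm4, or 4 of the 14, beside 9 of the 75 listed (12%). Of 35 genes of BMP and TGF-beta signalling and the Id family, 3 were nearest to a peak. They were the ligand genes Bmp7, at 93.9 kb, and Inhbb, at 165 kb, and the pseudoreceptor gene Bambi, at 116 kb, and none of these 3 had a promoter peak, although 13 of the 35 did (37.1%, beside 23.3% of all coding genes). The 3 are 13.6% of the 22 that border far intergenic sequence, beside 9.60% of all genes, and per 1000 windows the list held 5.92 peaks, beside 6.20.

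Far intergenic peaks were present on each autosome, from 6 on chromosome 19 to 39 on chromosome 10. Per Mb of far intergenic sequence, chromosome 10 had 0.978 (0.696 to 1.34), chromosome 9 had 0.969 (0.653 to 1.38) and chromosome 13 had 0.956 (0.673 to 1.32). The lowest were chromosome 1, with 0.405 (0.272 to 0.582), and chromosome 16, with 0.407 (0.222 to 0.682). The interval of chromosome 1 overlaps none of those 3, and that of chromosome 16 overlaps only that of chromosomes 9 and 13. As a share of each chromosome's peaks, far intergenic peaks ranged from 2.36% to 13.0%.

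**Figure D5:**
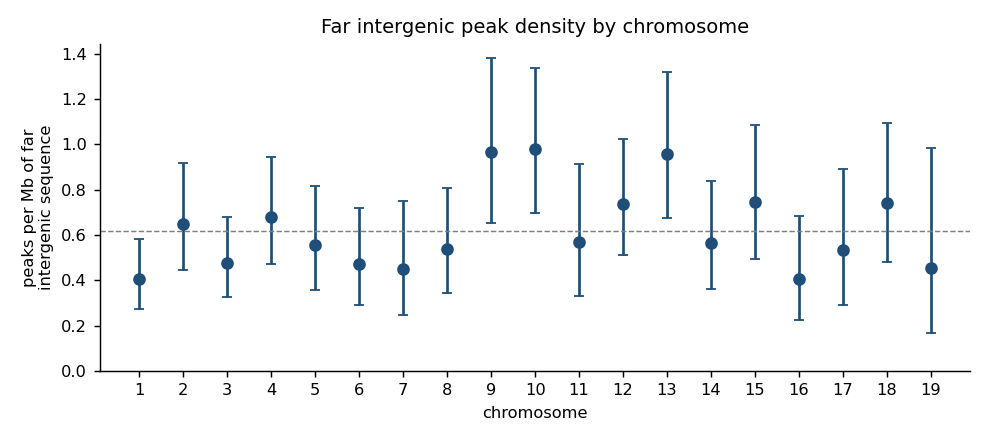
Far intergenic peaks per Mb of far intergenic sequence on each autosome with exact Poisson 95% intervals, and the density over all autosomes, 0.617 per Mb, as a dashed line. Chromosomes 9, 10 and 13 lie highest and chromosomes 1 and 16 lowest.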

How the data were processed

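The deposited values are the first and last base, in bp on mm10, of 1 list of Setd1a peaks. Per the labels and the study's methods, the authors used bcl2fastq 2.17.1.14, Trimmomatic 0.32, Bowtie2 2.1.0 with unique mapping, SAMtools 0.1.18 and MACS2 2.2.8 on each library, and kept the intersected peaks of both. Whether IgG served as control, and whether a kept peak has the limits of the overlap, is not given in the sources used here.

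Peaks were placed on GENCODE M21, with RefSeq as an alternative. GC content, the ratio of observed to expected CpG, lower-case repeat masking and motifs were read from GRCm38.p6 with pysam 0.24.0 and numpy 2.4.6, copies were found with BLAST 2.17.0 (90% identity and coverage), and figures were drawn with matplotlib 3.10.9. The sequence around peaks was sampled by 300 bp windows every 10 kb. Shares have Wilson, densities exact Poisson and medians order-statistic intervals, all at 95%. No test was run, since peaks are not replicates. Classing was tested on simulated data. No column was left unmatched.

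Regions named were the 10 widest, 5 farthest, 5 with the highest CpG ratio at 50% GC or more, groups of 3 within 10 kb, 3 on either side of the limit and those with CTCF, REST or telomere letters. Genes named were their neighbours, list genes, and genes nearest to 3 or more. The peaks, gene lists and motifs were chosen with earlier results of these data known. Alternatives covered annotation, distance, width, merging, copies, chromosome and chromosome start. A gene of the lists is counted but not reported here by name.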

Additional observations from a re-analysis of the deposited data

Results flagged for a closer look

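Chromosome X was outside the rule, and by the same criteria 6 of its 38 peaks were far intergenic. These lie outside the autosomes to which the report keeps. The share was 15.8% (95% Wilson interval 7.44% to 30.4%), beside 6.92% of autosomal peaks (6.34% to 7.54%), and was not tested. They were 239 to 514 bp wide and lay nearest to H2al1j, Bcor, H2al1n, Stk26, 4921511C20Rik and Egfl6, from 54628 bp (Stk26) to 417063 bp (H2al1n) away. Bcor encodes a Polycomb-associated corepressor. Chromosome Y had 1 peak, which was not far intergenic.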

How the results depend on the processing

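Of 119 values recomputed under alternatives, 102 stayed within the 95% interval of the reported value or, for counts, within 1.5 times of it. None of the results moved with the 3 other TSS sets (GENCODE basic, RefSeq, and any transcript of a protein-coding gene) or with distances from the midpoint. Nor did they with merging within 1000 bp, or with copies, chromosome 10 or the first 1 Mb of known sequence left out. Merging gave 472 peaks, and 470 remained without copies, 439 without chromosome 10 and 475 without the first 1 Mb. As so few peaks changed, merging, copies and the first 1 Mb could hardly move a median. RefSeq gave 485 far intergenic peaks, of which 391 were among the 478. A limit of 25 kb gave a median GC of 47.9%, 19 CpG islands and a density of 0.737 per Mb. A limit of 100 kb left 308 peaks and 267 nearest genes, with a median GC of 45.9%, a CpG ratio of 0.171, 3 CpG islands, 12 peaks with a neighbour within 10 kb and 0.492 per Mb. Peaks of at least 300 bp had, by construction, a larger median width (442 bp) and a lower density (0.451 per Mb), and 18 had a neighbour. In the central 300 bp the CTCF share was 0. Within 45% to 50% GC, a setting chosen after seeing the data, the shares of SOX (4.14%), SP/KLF (2.76%) and SMAD letters (1.38%) were lower. The cause of the changes with distance was not tested.

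No paired analysis was possible because 1 list stands for both libraries with no replicate columns. For that reason no replicate was left out. Depth, peak height and the IgG signal are unknown here, so an absent peak says only that it is not in the list.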
